A study of Mus musculus with 12 samples.

Results

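The 37 genes described here are genes of the type I interferon response, the antiviral programme that cells switch on when interferon reaches them. They were chosen by symbol, as the rows of the deposited expression table whose gene symbol was on a list of 37. Of these, 36 were found under the listed symbol, and Ifit1bl1 was found under its older symbol in RefSeq, Gm14446. All 37 were therefore present among the 45808 genes of the table. The study sequenced polyadenylated RNA from the distal ileum, the last stretch of the small intestine, of mice of the inbred strain BALB/c. A group of 6 samples received phosphate-buffered saline (PBS), and another 6 were treated with P. gingivalis, a bacterium of the mouth associated with periodontitis. Both groups share strain and tissue, and no other allele or agent is named in the labels. The route, dose and length of treatment, the bacterial strain and the age of the animals are not stated. No source used here says that each library is a different mouse, so the p-values measure the spread between these libraries. In bulk tissue more cells of a type and more RNA per cell cannot be told apart.

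Type I interferons (the interferon alphas, interferon beta and their relatives) bind the receptor chains Ifnar1 and Ifnar2, and the kinases Jak1 and Tyk2 then activate Stat2. Stat2 and Irf9 are parts of a complex that binds a short element in the promoters of its targets, the interferon-stimulated response element. The type III interferons, to which the gut epithelium responds strongly, use the receptor chains Ifnlr1 and Il10rb and end in the same complex. The target genes code for nucleic acid sensors, for proteins that block viral translation, replication or release, and for factors that amplify or damp the response.

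The response element was looked for in the genes' promoters because it is a feature that the choice of genes did not use. RefSeq promoters of build GRCm38.p6, from 250 bases before to 50 bases after each gene's start, were available for 28 of the 37 genes. They were searched on both strands, overlaps allowed, for GAAANNGAAA. At least 1 match was present for 17 of the 28 genes (60.714%). Among all 27025 genes with a promoter entry, 1079 (3.993%) had one. The stretches below surround matches in genes that turn up repeatedly in the results, and in the near-identical gene pairs, with the matching bases in capitals and each sequence written 5′ to 3′ along the gene's own strand. Capitals that begin with TTTC are matches on the opposite strand.
Isg15, chr4:156200850-156200921, minus strand: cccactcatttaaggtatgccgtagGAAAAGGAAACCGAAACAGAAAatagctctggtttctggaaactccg
Ifit1, chr19:34640760-34640838, plus strand: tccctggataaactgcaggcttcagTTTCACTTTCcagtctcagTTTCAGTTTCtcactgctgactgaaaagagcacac
Ifit1bl1, chr19:34602038-34602097, minus strand: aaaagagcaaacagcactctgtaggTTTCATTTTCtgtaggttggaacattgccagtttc
Oas3, chr5:120777700-120777759, minus strand: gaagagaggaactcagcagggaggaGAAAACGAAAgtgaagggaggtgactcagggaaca
Ddx60, chr8:61928009-61928086, plus strand: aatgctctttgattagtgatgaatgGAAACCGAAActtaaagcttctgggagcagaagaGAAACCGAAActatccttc
Rsad2, chr12:26456538-26456597, minus strand: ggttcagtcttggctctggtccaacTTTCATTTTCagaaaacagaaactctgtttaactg
Trim30a, chr7:104465195-104465254, minus strand: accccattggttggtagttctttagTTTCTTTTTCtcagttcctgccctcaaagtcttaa
Ifit3, chr19:34583348-34583441, plus strand: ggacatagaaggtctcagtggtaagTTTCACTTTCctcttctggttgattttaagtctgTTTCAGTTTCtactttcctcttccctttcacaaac
Ifit3b, chr19:34607744-34607837, plus strand: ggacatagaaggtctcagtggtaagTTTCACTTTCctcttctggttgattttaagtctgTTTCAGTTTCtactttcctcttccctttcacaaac
Oas1a, chr5:120907526-120907570, minus strand: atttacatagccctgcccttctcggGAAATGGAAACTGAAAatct
Oas1g, chr5:120887614-120887656, minus strand: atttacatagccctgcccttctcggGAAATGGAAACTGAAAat

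In Isg15 3 overlapping matches lie side by side, from base -78 to base -57, counted from the start. In Oas1a and Oas1g a pair of matches overlaps close to the start, while Ifit1 and Ddx60 each have a pair of separate matches. The 94 bases shown for Ifit3 and Ifit3b are the same letter for letter. The genes with an entry and no match in this window were Cmpk2, Herc6, Ifi44, Ifi47, Ifit2, Irf7, Irf9, Oasl1, Oasl2, Phf11d and Xaf1. Matches not shown were those of Bst2, Stat2, Slfn5, Ddx58, Ifih1 and Eif2ak2, and those in a second promoter entry of Ifit1bl1 and of Trim30a. Entries were missing for Oas2, Mx1, Mx2, Usp18, Zbp1, Dhx58, Ifi27l2a, Rtp4 and Parp14. Outside the 37 genes, the match was present in 21 of 48 other interferon-stimulated genes (43.75%) and in 2 of 25 receptor and signalling genes (8.0%). A match is a description of the sequence and does not show that a factor binds there.

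The recovered depth was 6553306 to 10378841 reads per library. Values below are normalized counts, that is, reads per gene divided by a scaling factor for the library. All 37 genes passed the filter of a mean of 10 normalized counts over the 12 libraries, with 231 (Oas2) to 15017 (Parp14) reads in all. In 3 libraries a feature of gut position stood apart. Fabp6, the bile acid binding protein of the ileum, was at 4.32 in PBS replicate 6 and at 2.52 and 16.0 in replicates 1 and 5 of the P. gingivalis group, against 11246 to 69383 in the other 9, so the defining marker of the labelled tissue was nearly absent there. A position score, the mean log2 level of 4 genes of the upper small intestine minus that of 4 ileal genes, was 9.001, 10.1 and 9.38 in these libraries. It was -6.25 in P. gingivalis replicate 6, which had no reads of Gata4, a transcription factor of the upper small intestine, and -2.28 to 2.30 in the other 8.

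The interferon response genes were mostly somewhat higher after P. gingivalis, and no gene passed the test. Of the 37, 34 had a positive difference (P. gingivalis minus PBS) and 3, Ifi27l2a, Cmpk2 and Bst2, a negative one. The median difference was 0.27 on the log2(normalized count + 1) scale, with a median standard error (SE) of 0.26 for a single gene. Over all 15025 genes tested, 48.9% had a positive difference and the median was -0.004. Limma called 0 of the 37 at a Benjamini-Hochberg adjusted p under 0.05, and 0.0% of all genes; the adjusted p of the 37 ran from 0.987 to 0.997. At an unadjusted limma p under 0.05, Zbp1 and Ifit1bl1 were higher, against 1.57% of all genes, and Ifi27l2a was lower, against 2.16% of all genes. The edgeR quasi-likelihood test on the recovered reads called 0 of the 37. At an unadjusted edgeR p under 0.05, 3 were higher and 1 lower, against 3.64% of all genes in either direction. DESeq2 called 0 of the 37, and 31 over all genes. At an unadjusted DESeq2 p under 0.05, 4 of the 37 were higher and 1 lower, against 2.58% of all genes in either direction. The ranges of the groups overlapped for all 37 genes, while 0.166% of all genes had groups that did not overlap. Many of the 37 are known to follow the same signal, so they are not 34 separate observations.

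**Figure D1:**
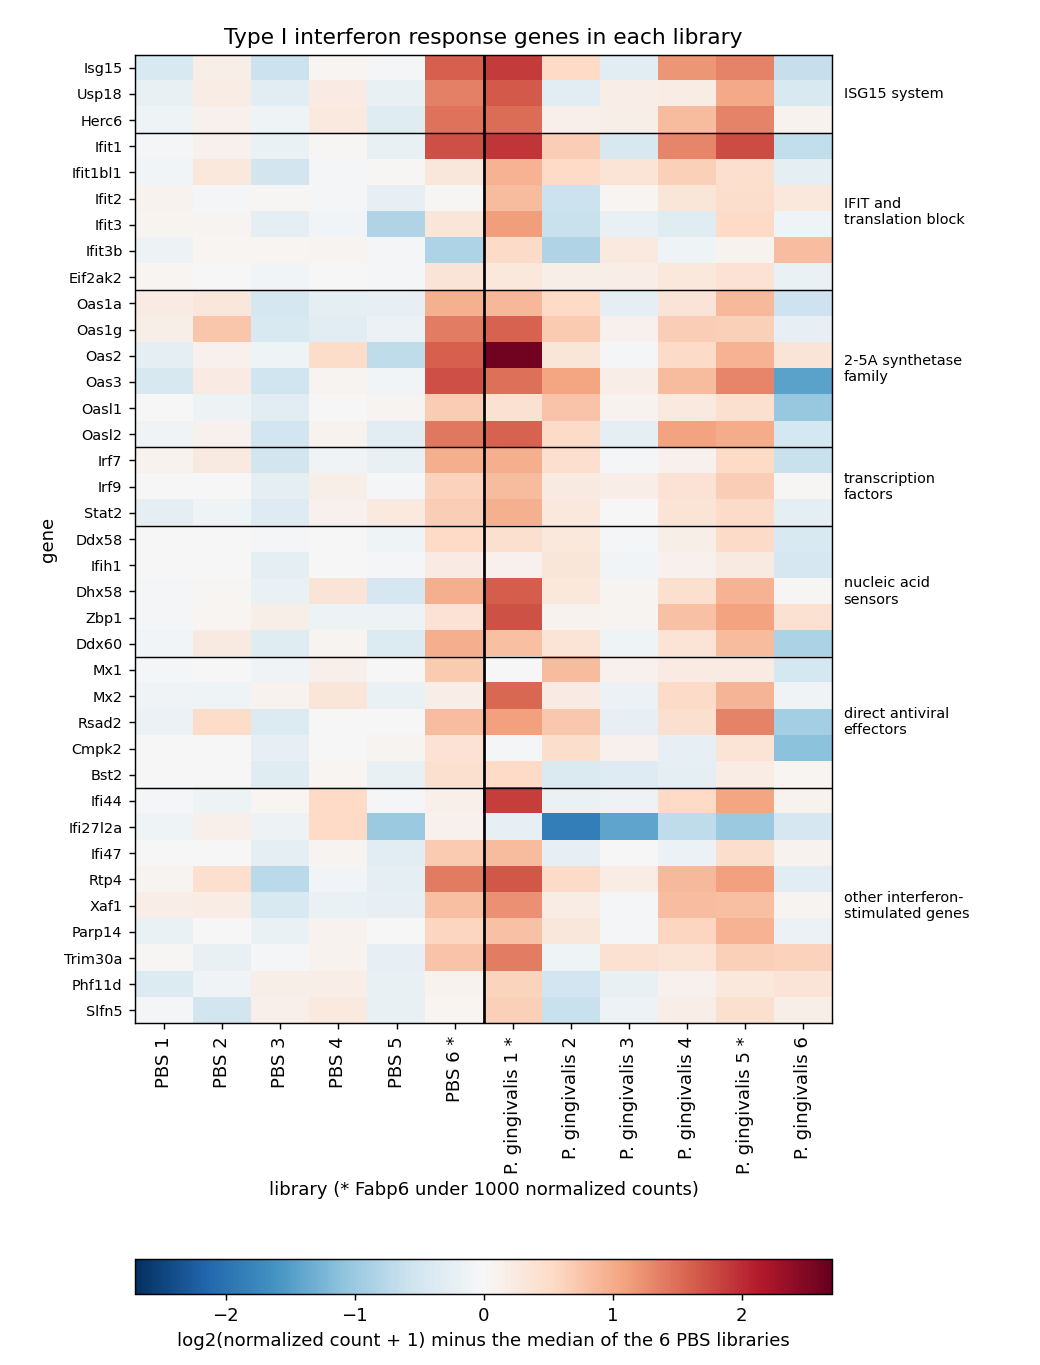
Colour gives the log2(normalized count + 1) of each of the 37 genes (rows, grouped by role) in each of the 12 libraries (columns), minus the median of the 6 PBS libraries for that gene. The columns marked with a star, PBS 6, P. gingivalis 1 and P. gingivalis 5, are red for most genes, Oas2 in P. gingivalis 1 is the darkest cell, and Ifi27l2a is blue in all 6 P. gingivalis libraries.

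The ISG15 system attaches and removes a small ubiquitin-like protein. All 3 of its genes had positive differences, with a median of 0.48. Herc6, the main mouse ligase for ISG15, had the smallest p of the 3. It ran from 74.4 (median 94.4) to 261.3 normalized counts in PBS and from 100.9 (median 138.1) to 271.0 after P. gingivalis. The 3 values above 200 came from PBS replicate 6 and P. gingivalis replicates 1 and 5, and the groups overlapped throughout. Its difference was 0.48 (SE 0.32, limma adjusted p = 0.992). Isg15, the modifier itself, had PBS values of 17.04 to 82.1 and P. gingivalis values of 16.5 to 99.6, a difference of 0.54 (SE 0.45). Its value is uncertain, since 63.8% of its longest transcript matched the gene model AC151275.1 at 95% identity or more. Usp18, which removes ISG15 and damps receptor signalling, differed by 0.20 (SE 0.37).

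The IFIT proteins bind foreign RNA and block its translation, and Eif2ak2 codes for PKR, a kinase that stops translation when it meets double-stranded RNA. All 6 genes of this group had positive differences, from 0.14 to 0.52. Ifit1bl1, an Ifit1-like gene, ran from 44.5 (median 63.4) to 78.8 in PBS and from 53.1 (median 89.5) to 122.3 after P. gingivalis. Of the 6 P. gingivalis libraries, 5 lay above the highest PBS library, and replicate 6, at 53.1, was the exception. The difference was 0.44 (SE 0.19), with an unadjusted limma p of 0.0345 and a Benjamini-Hochberg adjusted p of 0.992. Ifit1 differed by 0.52 (SE 0.47) and spread widely, with PBS values of 63.5 to 245.1 and P. gingivalis values of 45.2 to 279.8. Eif2ak2 spread least of all 37 genes, 1.496-fold between its highest and lowest library, and differed by 0.14 (SE 0.10). Ifit2 differed by 0.26 (SE 0.19). Ifit3, at 0.18 (SE 0.28), and Ifit3b, at 0.27 (SE 0.27), cannot be told apart with certainty: 97.4% of the longest Ifit3 transcript matched Ifit3b at 95% identity or more, over stretches of at least 100 bases.

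The 2-5A synthetases make a short adenylate chain that switches on the RNA-degrading enzyme RNase L, and the related Oasl genes code for proteins that regulate the response. All 6 genes had positive differences, with a median of 0.38. Oas2 was the most weakly expressed of the 37 per length, at 4.6 normalized counts per kb of exon. It ran from 6.69 (median 11.4) to 36.7 in PBS and from 10.96 (median 15.8) to 74.4 after P. gingivalis. The highest value of each group, in PBS replicate 6 and P. gingivalis replicate 1, stood far from the remaining libraries of its group. The difference was 0.59 (SE 0.45, limma adjusted p = 0.992), and the span of 11.1-fold between the highest and lowest library was the widest of the 37 genes. Oas3 spanned 9.22-fold, from 44.4 in P. gingivalis replicate 6 to 409.2 in PBS replicate 6, and differed by 0.41 (SE 0.48). Oasl2, Oas1g, Oas1a and Oasl1 differed by 0.46 (SE 0.37), 0.35 (SE 0.33), 0.21 (SE 0.28) and 0.10 (SE 0.25). The longest Oas1a transcript lies wholly in stretches shared with Oas1g by the same measure, so the values of this pair are also uncertain.

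Among the transcription factors, Irf9 and Stat2 are parts of the complex that binds the response element, and Irf7 drives the interferon genes themselves. All 3 had positive differences, with a median of 0.26. Irf9 ran from 202.6 (median 244.5) to 379.0 in PBS and from 250.5 (median 304.4) to 441.2 after P. gingivalis. All 6 P. gingivalis libraries lay above 4 of the 6 PBS libraries, and PBS replicate 6 was the highest of its group. The difference was 0.31 (SE 0.16, limma adjusted p = 0.992). Stat2 differed by 0.26 (SE 0.20) and Irf7 by 0.15 (SE 0.26).

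All 5 nucleic acid sensors had positive differences, with a median of 0.15. Zbp1, a sensor of Z-form nucleic acids linked to programmed cell death, had the largest positive difference of the 37. It ran from 32.6 (median 36.2) to 47.5 in PBS and from 38.4 (median 56.0) to 121.0 after P. gingivalis. The PBS libraries lay close together, 4 of the 6 P. gingivalis libraries lay above all of them, and P. gingivalis replicates 2 and 3, at 38.9 and 38.4, lay within the PBS range. The difference was 0.66 (SE 0.25), with an unadjusted limma p of 0.0198 and a Benjamini-Hochberg adjusted p of 0.992. Dhx58, the regulator LGP2, differed by 0.45 (SE 0.29). The RNA sensors Ddx58 (RIG-I) and Ifih1 (MDA5) were among the more strongly expressed members, at 88.1 and 126.0 normalized counts per kb of exon, and differed by 0.09 (SE 0.16) and 0.05 (SE 0.13). Ddx60, a helicase thought to aid these sensors, differed by 0.15 (SE 0.29).

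The direct antiviral effectors were split, with 3 positive and 2 negative differences and a median of 0.04. Mx2, a dynamin-like GTPase, had the smallest p of them. It ran from 33.4 (median 38.2) to 48.1 in PBS and from 34.0 (median 49.6) to 113.4 after P. gingivalis. P. gingivalis replicates 1, 5 and 4, at 113.4, 73.2 and 55.0, lay above the PBS range and the other 3 within it. The difference was 0.46 (SE 0.26, limma adjusted p = 0.992). The annotation used here types Mx2 as a polymorphic pseudogene, and 34.8% of its longest transcript is shared with Mx1. Mx1, which is defective in most inbred strains, differed by 0.04 (SE 0.20), and Rsad2, the antiviral enzyme viperin, by 0.28 (SE 0.34). Cmpk2, a nucleotide kinase gene next to Rsad2, and Bst2, which tethers budding viruses to the cell, differed by -0.11 (SE 0.22) and -0.02 (SE 0.18).

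The other 9 genes had 8 positive differences and a median of 0.35. The exception was Ifi27l2a, a small interferon-induced membrane protein and the most strongly expressed of the 37 per length, at 354.5 normalized counts per kb of exon. It ran from 105.3 (median 212.6) to 306.8 in PBS and from 56.9 (median 118.3) to 180.3 after P. gingivalis. Of the PBS libraries, 5 lay above all 6 P. gingivalis libraries, and replicate 5, at 105.3, lay among them. The difference was -0.87 (SE 0.29), with an unadjusted limma p of 0.00939 and a Benjamini-Hochberg adjusted p of 0.987. Its relative Ifi27, which is not one of the 37, was also lower, at -0.33 (SE 0.09), with an unadjusted limma p of 0.00300 and a Benjamini-Hochberg adjusted p of 0.6251. Another relative outside the 37, Ifi27l2b, showed no clear difference, at -0.14 (SE 0.36), with an unadjusted limma p of 0.706.

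Trim30a, a damper of innate signalling, lay just outside the unadjusted threshold and is described because it crosses it under several alternatives. It ran from 73.6 (median 86.5) to 149.0 in PBS and from 79.5 (median 124.5) to 225.6 after P. gingivalis, a difference of 0.48 (SE 0.22), with an unadjusted limma p of 0.0508 and a Benjamini-Hochberg adjusted p of 0.992. In the PBS group replicate 6 was high, and 5 of the 6 P. gingivalis libraries lay above the other 5 PBS libraries. Rtp4 (a chaperone induced by interferon), Ifi44 and Xaf1 (a promoter of cell death) differed by 0.53 (SE 0.36), 0.46 (SE 0.31) and 0.46 (SE 0.25). Parp14, an ADP-ribosyltransferase, differed by 0.35 (SE 0.19). Slfn5, Phf11d and the GTPase gene Ifi47 differed by 0.16 (SE 0.19), 0.15 (SE 0.19) and 0.14 (SE 0.21).

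**Figure D2:**
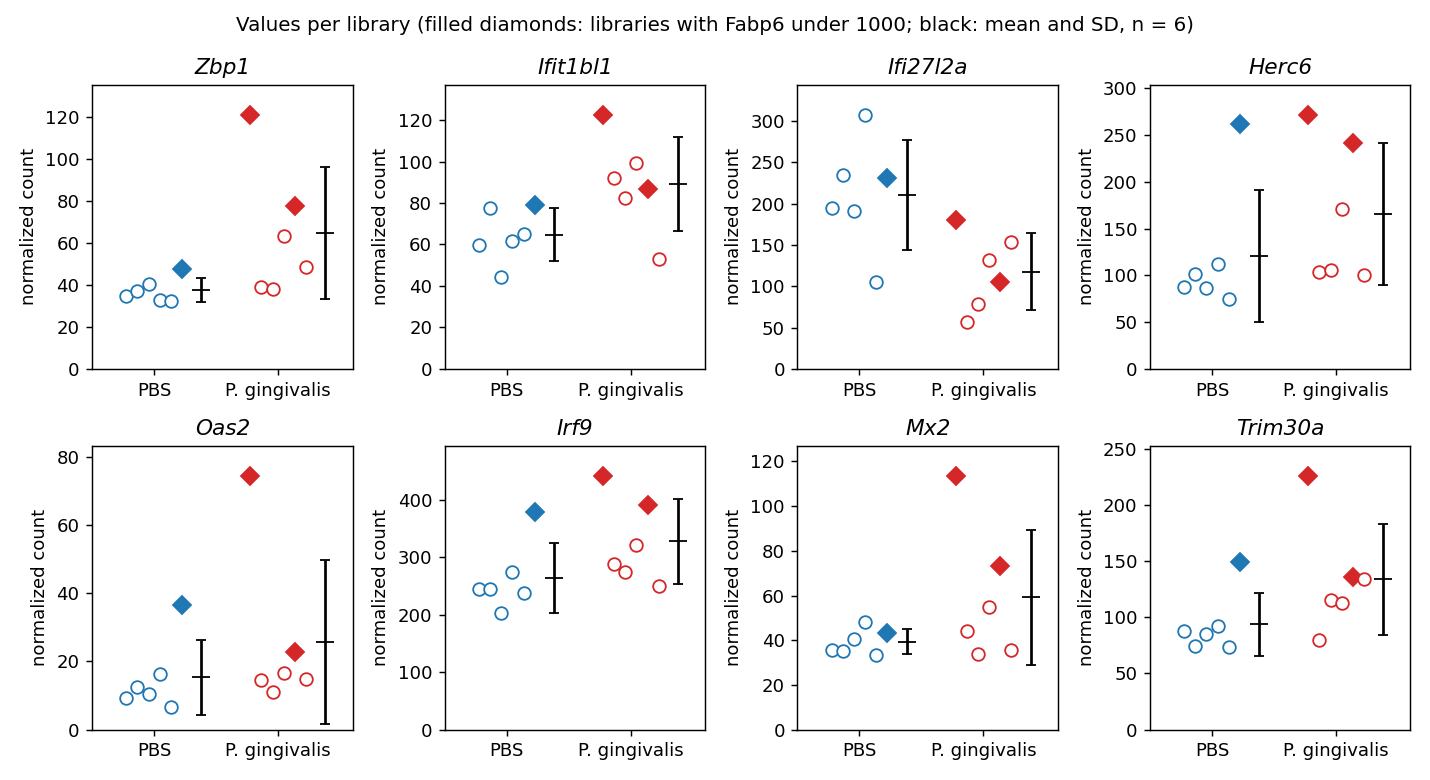
Each panel gives 1 gene's normalized count in the 6 PBS libraries (blue) and the 6 P. gingivalis libraries (red), with the mean and SD in black; filled diamonds mark the 3 libraries with Fabp6 under 1000. Zbp1 and Mx2 are spread widely after P. gingivalis and narrowly in PBS, Ifi27l2a is the gene with lower values after P. gingivalis, and the diamonds are the highest points of Herc6 and Irf9 in both groups.

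On build GRCm38 (GENCODE M21), Zbp1 lies on chromosome 2 from 173206612 to 173218923 and Ifit1bl1 on chromosome 19 from 34592891 to 34601956, within a cluster that also holds Ifit1, Ifit2, Ifit3 and Ifit3b. Ifi27l2a lies on chromosome 12 from 103442167 to 103443680, Herc6 on chromosome 6 from 57581000 to 57664632 and Irf9 on chromosome 14 from 55603571 to 55610030. Oas2 lies on chromosome 5 from 120730333 to 120749853, beside Oas3, Oas1g and Oas1a. Mx2 lies on chromosome 16 from 97535308 to 97560900 and Trim30a on chromosome 7 from 104409025 to 104465193. All but Mx2 are annotated as protein coding, and the values cover whole genes. Of the exon bases of Herc6, 13.7% are shared with Gm45193 on the same strand, so part of its value may belong to that gene.

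Many of the 37 genes were highest in the same libraries, which came from both groups. PBS replicate 6 and P. gingivalis replicates 1 and 5, the libraries nearly without Fabp6, held the 3 highest of 12 values for 21 of the 37 genes, against 6.46% of all genes. These 21 included Isg15, Usp18, Herc6, Ifit1, Oas2, Oas3, Irf7, Irf9, Stat2, Dhx58, Rsad2 and Rtp4. In PBS replicate 6 the 37 genes averaged 7.44 on the log2 scale, where the 5 remaining PBS libraries lay at 6.50 to 6.81. After P. gingivalis the average was 7.77 in replicate 1 and 7.42 in replicate 5, and 6.49 to 7.10 in the other 4. P. gingivalis replicate 1 was the highest of the 12 libraries for 24 of the 37 genes, where it was the highest for 12.4% of all genes. P. gingivalis replicate 6, at the opposite end of the position score, was the lowest library for 14 of the 37, where it was the lowest for 19.7% of all genes.

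PBS replicate 6 lay above all 5 other PBS libraries for 30 of the 37 genes, and the same share over all genes was not computed. The ratio to the median of those 5 was 3.55 for Oas3, 3.52 for Oas2, 3.43 for Ifit1 and 3.27 for Isg15. It was 1.18 for Ifih1 and 1.27 for Eif2ak2, so the genes differed in how far they stood above. Ifit2, Mx2, Ifi44, Ifi27l2a, Phf11d and Slfn5 stayed within the range of the other PBS libraries. Ifit3b, with 9 reads there and hard to tell from Ifit3, was below that range, at a ratio of 0.52. Of these 7 genes, all but Ifi27l2a, Ifit3b and Phf11d were higher in both P. gingivalis replicates 1 and 5 than in the other 4 libraries of that group; Ifi44 stood at 148.7 and 84.6 there against 35.3 to 58.6, and Mx2 at 113.4 and 73.2 against 34.0 to 55.0. Set against both P. gingivalis libraries of the 3, PBS replicate 6 was lower for 13 genes, among them Zbp1, Mx2, Ifi44 and Irf9, between them for 16, and higher for 8, among them Oas3, Mx1 and Ifi27l2a. With 1 library against a pair, this comparison has no test, and its shares over all genes were not computed.

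**Figure D3:**
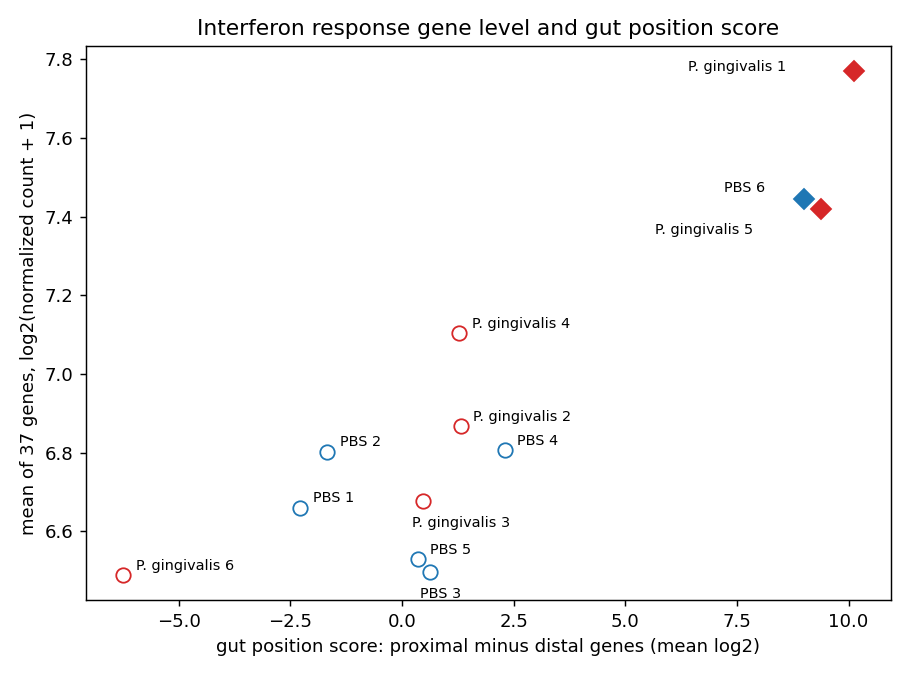
Each point is 1 library, with its gut position score (mean log2 level of 4 upper intestinal genes minus that of 4 ileal genes) on the x axis and the mean log2(normalized count + 1) of the 37 interferon response genes on the y axis; blue is PBS, red is P. gingivalis, filled diamonds have Fabp6 under 1000. The 3 diamonds lie together at the upper right, with scores from 9.001 to 10.1 and means from 7.42 to 7.77, and P. gingivalis 6 at the lower left, with -6.25 and 6.49.

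Because these libraries were spread unevenly over the groups, 1 in PBS and 2 after P. gingivalis, the comparison was repeated without them. Without the 3 libraries nearly lacking Fabp6, 31 of the 37 genes kept a positive difference, the median was 0.11, and Trim30a, at 0.39 (SE 0.16), was the 1 gene higher at an unadjusted limma p under 0.05, against 1.13% of all genes. Zbp1 and Ifit1bl1 then differed by 0.37 (SE 0.18) and 0.38 (SE 0.21). Ifi27l2a stayed lower, at -0.99 (SE 0.33). With the position score as a covariate in limma, 33 differences were positive, the median was 0.20, and 5 genes were higher at an unadjusted p under 0.05, Zbp1, Ifit1bl1, Irf9, Parp14 and Trim30a, against 2.07% of all genes.

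Leaving out single libraries moved the values both ways. Without P. gingivalis replicate 1, the library with the highest mean of the 37 genes, the median was 0.14, with 31 positive differences, and Zbp1 alone was higher at an unadjusted limma p under 0.05, against 1.01% of all genes. Without P. gingivalis replicate 6, 9 of the 37 genes were higher at an unadjusted limma p under 0.05, against 3.11% of all genes. Without PBS replicate 6 it was 10 genes, against 2.62% of all genes, and the median was 0.41. When P. gingivalis replicate 6 was left out together with the 3 libraries, an alternative chosen after seeing the data, 5 PBS and 3 P. gingivalis libraries remained. Then 29 of the 37 differences were positive, the median was 0.29, and 10 genes were higher at an unadjusted limma p under 0.05, against 1.95% of all genes. These were Herc6, Ifit1bl1, Eif2ak2, Oas3, Oasl1, Oasl2, Irf9, Mx1, Rtp4 and Parp14, led by Oas3 at 0.85 (SE 0.22). Zbp1, at 0.35 (SE 0.20), was not among them. Ifi27l2a differed by -1.21 (SE 0.31). In this fit too 0 of the 37 passed in limma after Benjamini-Hochberg adjustment, the smallest adjusted p being 0.202.

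**Figure D4:**
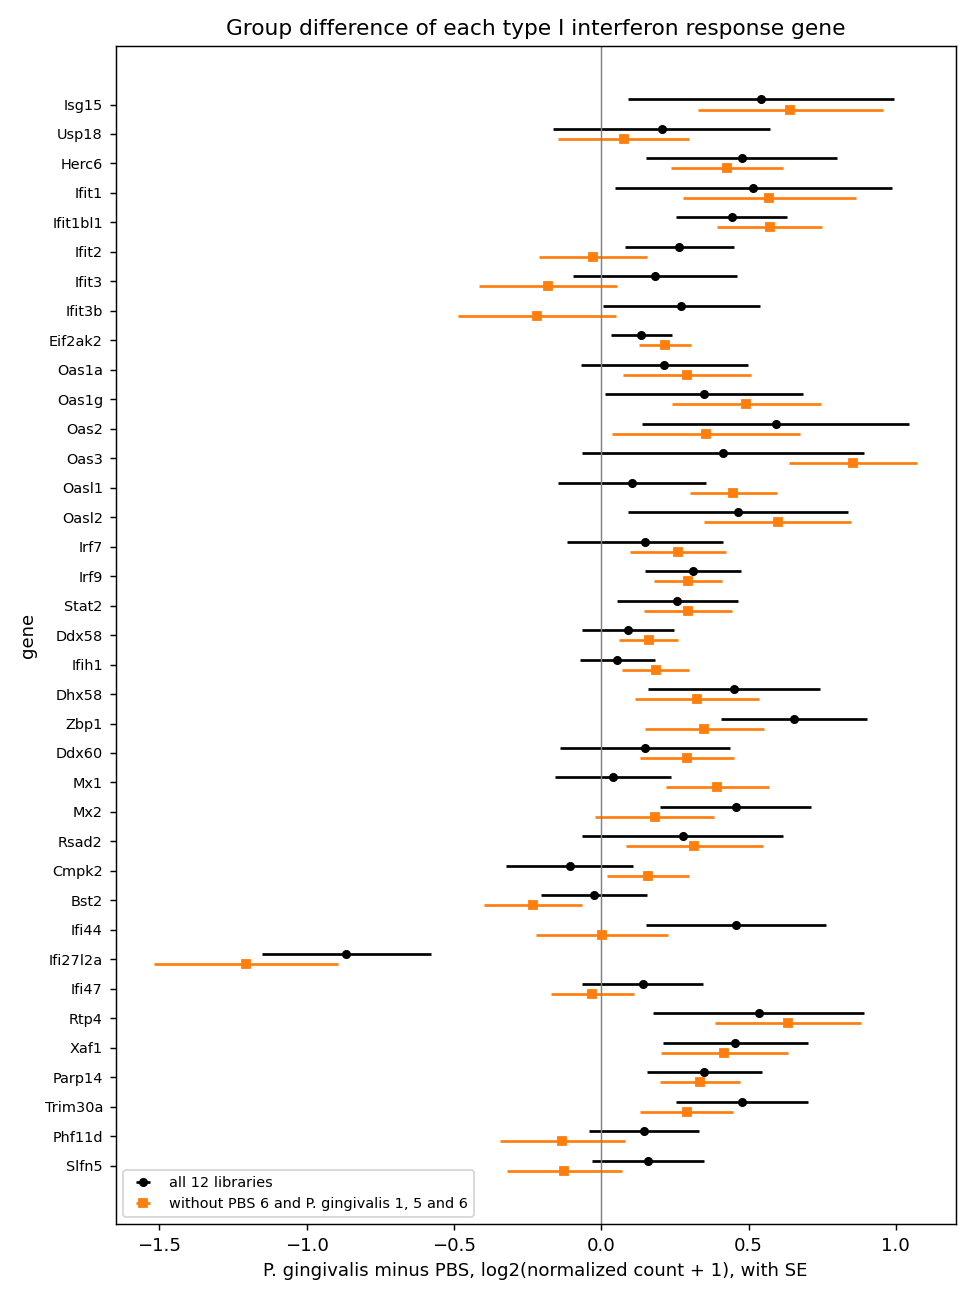
Points give the difference (P. gingivalis minus PBS, log2(normalized count + 1)) of each of the 37 genes with its limma SE, from all 12 libraries (black circles) and without PBS 6 and P. gingivalis 1, 5 and 6 (orange squares). Most points lie to the right of 0 in both fits, Ifi27l2a lies at -0.87 and -1.21, and Ifit2, Ifit3, Ifit3b, Ifi47, Phf11d and Slfn5 are positive with all libraries and negative without the 4.

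Upstream of the 37 genes, the interferons themselves were hardly detectable. Of 21 ligand genes in the table, covering the types I, II and III, only Ifna2, with 1 read in P. gingivalis replicate 1, and Ifng, with 1 read in PBS replicate 5, had any read. A count of 0 allows up to 3 reads, which is 2.14 to 3.78 normalized counts depending on the library, so a difference in the ligands was not detectable at this depth.

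Receptors and signalling components were expressed in all libraries and differed little. Of 30 such genes tested, 22 had positive differences, the median was 0.07, and 0 passed the limma test with Benjamini-Hochberg adjustment or had an unadjusted p under 0.05. The type I receptor chains Ifnar1 and Ifnar2 both differed by 0.04 (SE 0.07 and 0.20), and the type III chains Ifnlr1 and Il10rb both by 0.07 (SE 0.24 and 0.15). The kinases Jak1 and Tyk2 differed by 0.07 (SE 0.08) and -0.08 (SE 0.09).

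Of 58 further interferon-stimulated genes outside the 37, 52 were tested, 39 had positive differences (48.9% of all genes did), and the median was 0.14. None passed the limma test with Benjamini-Hochberg adjustment. At an unadjusted limma p under 0.05, 3 were higher, Slfn8 and Slfn9 of the Schlafen family at 0.60 (SE 0.27) and 0.21 (SE 0.09) and the exoribonuclease gene Pnpt1 at 0.17 (SE 0.08), and Ifi27 was lower, as given above; the shares of all genes were 1.57% and 2.16%.

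Sums of T cell and macrophage markers were highest in the libraries nearly without Fabp6, where many of the interferon genes were highest too. P. gingivalis replicate 6 did not follow this pattern. Its mean of the interferon genes was the lowest of all libraries, at 6.49 log2 units. Yet its T cell and macrophage sums, 445 and 2431, were the highest outside the libraries nearly without Fabp6. The 16 T cell and intraepithelial lymphocyte markers summed to 682, 1012 and 815 normalized counts in PBS replicate 6 and P. gingivalis replicates 1 and 5, against 247 to 445 in the other 9. All 16 had reads, and the 10 tested had positive differences between the groups, with a median of 0.50 and 0 calls. Of the 16, 8 stood higher in each of the 3 libraries than in all other 9: Cd3g, Cd4, Cd8a, Trdc, Gzma, Gzmb, Ccl5 and Cd7. The other 8, among them Cd2, Cd3d, Cd3e and Trac, did not. Gzma, a granule protease of cytotoxic cells and the marker with the highest value in any library, stood at 111.2, 292.4 and 186.3 in the 3 libraries and at 8.70 to 51.9 elsewhere. The 9 macrophage markers summed to 2583, 3214 and 2706 against 1760 to 2431. Of the 9, 2 set the 3 libraries apart, and the other 7 summed to 1411, 1682 and 1406 against 1077 to 1781. The 6 markers of plasmacytoid dendritic cells, a main source of type I interferon in blood, did not sum to more there, at 1319, 1402 and 1225 against 1397 to 2316. Most of each of these sums came from Klk1 and Tcf4, at 366.0 and 761.2 in PBS replicate 6, so they say little about the weaker markers. Of the 6, Siglech alone set the 3 libraries apart, at 113.4, 147.5 and 118.9 against 43.6 to 80.8. It is the most specific of these markers and was singled out after its values were seen.

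The sums of the other lists of cell markers did not set these libraries apart. The 5 conventional dendritic cell markers summed to 471, 648 and 482 against 234 to 549. Of these 5, Itgax alone set the 3 libraries apart, at 302.3, 408.4 and 314.3 against 153.7 to 299.2. The 7 B cell markers summed to 679, 103 and 131 against 57.7 to 812. The 8 epithelial markers summed to 92104, 67676 and 88452 against 64816 to 127643. Among 5 neutrophil markers S100a8 was at 0 in every library, and the sums were 27.0 to 39.8 in PBS and 17.2 to 70.6 after P. gingivalis. The 4 smooth muscle and 4 fat cell markers had negative differences throughout, with medians of -0.55 and -3.79 and 0 calls. Reads from mitochondrial ribosomal RNA took 8.26% in PBS replicate 6 and 10.9% in P. gingivalis replicate 1, against 0.836% to 5.27% in the other 10, with 2.34% in P. gingivalis replicate 5. Those from the 18S ribosomal RNA entry Rn18s-rs5 took 4.6% in P. gingivalis replicate 4 and 0.629% in replicate 2, against at most 0.00561% elsewhere. Both of these libraries stayed in the fit of 5 PBS and 3 P. gingivalis libraries. The part of gut position, cell composition or ribosomal RNA in the values of the 37 genes was not tested beyond the fits with the position score and without libraries.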

How the data were processed

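RNA-seq was done on 6 PBS and 6 P. gingivalis samples. The authors deposited 1 table of normalized signal: gene counts divided by 1 DESeq2 size factor per sample, per the file name and the values. FastQC, HISAT2, Cufflinks and DESeq2 and the build GRCm38 (mm10) are named in the submitters' processing notes. How reads were counted, with which strand setting and annotation, is not given in the sources used here, so overlapping and near-identical genes are uncertain. Each library's values were whole multiples of 1 step, and dividing by it gave whole reads for 100.0% of values within 0.001. No library copied another (chi-square per degree of freedom of at least 7.09 for each pair). Floors of 3 reads cover counting error only.

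Genes with a mean of at least 10 (15025) were fitted with limma 3.58.1 (R 4.3.3) on log2(normalized count + 1), with its mean-variance trend and no covariates, two-sided, with Benjamini-Hochberg adjustment over all genes at 0.05. The pseudocount makes differences of weakly expressed genes too small. The steps were run on simulated counts with the same dispersion for every gene and no differences in gut position. That run checks the steps and does not measure power or error in these data. The genes and lists were chosen with earlier results of these data known. Values per library are given for genes at an unadjusted p under 0.05 and for the gene with the smallest p in each of 7 roles. A pathway gene that this rule would name is not reported here. Trim30a was added after its values were seen, as were the ribosomal RNA shares. Alternatives were pseudocounts of 0.5 and 5, no filter or a mean of 50, TMM and upper-quartile rescaling, a replicate block, sample weights, edgeR 4.0.16 and DESeq2 1.42.0 on recovered reads, the position score, and leaving out libraries. Transcript sharing is the part of the longest GENCODE M21 transcript matching another gene at 95% identity over at least 100 bases. Promoter sequences are from RefSeq, and levels per kb use all annotated exon bases of a gene.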

Additional observations from a re-analysis of the deposited data

Results flagged for a closer look

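Of 76 groups of 6 values examined (each of the 37 genes and their mean, in each group), 21 had a library far from the other 5. The cut-off flags about 1 in 20 groups of normally distributed values. The share flagged over all genes was not computed, so the 21 cannot be read as particular to these genes. Since the genes vary together, these are not 21 separate events: 18 of them lie in PBS replicate 6, the PBS library with Fabp6 at 4.32.

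In that library the mean of the 37 genes was 7.44 log2 units, against 6.50 to 6.81 in the other PBS libraries. For the ISG15 system, Isg15 stood at 82.1 normalized counts against 17.04 to 29.1, Usp18 at 71.3 against 21.8 to 31.7 and Herc6 at 261.3 against 74.4 to 112.5. Ifit1 stood at 245.1 against 63.5 to 78.9 and Eif2ak2 at 610.02 against 456.3 to 499.8. Of the 2-5A synthetase family, Oas2 stood at 36.7 against 6.69 to 16.3, Oas3 at 409.2 against 84.3 to 142.2, Oasl1 at 507.4 against 257.5 to 331.8 and Oasl2 at 328.2 against 84.3 to 130.7. Irf7 stood at 913.4 against 330.4 to 546.8, Ddx58 at 822.7 against 519.9 to 572.7, Ddx60 at 1380.9 against 544.1 to 827.0 and Mx1 at 115.5 against 66.3 to 77.9. Ifi47 stood at 160.9 against 79.4 to 102.9, Parp14 at 1566.6 against 917.4 to 1110.7 and Trim30a at 149.0 against 73.6 to 92.3. Ifit3b went the other way, at 9.72 against 16.4 to 19.2. That value rests on 9 reads, and 84.8% of the longest Ifit3b transcript matched Ifit3. In the same library Ifit3 stood at 50.7 against 22.6 to 42.8, so how reads were split within this pair is uncertain.

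P. gingivalis replicate 1 stood apart for Oas1g, at 179.0 against 49.6 to 95.8, and for Oas2, at 74.4 against 10.96 to 22.9. PBS replicate 4 stood apart for Ifi44, at 58.7 against 36.3 to 44.3.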

How the results depend on the processing

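None of the 37 genes was called in any of 25 alternatives. Of 916 gene values under them, 892 kept their sign, and 24, in 13 genes, did not. The median difference was 0.11 without the libraries nearly lacking Fabp6, and leaving out 1 library gave 0.14 (P. gingivalis replicate 1) to 0.41 (PBS replicate 6), while TMM rescaling moved the median of all genes to -0.03. At an unadjusted p under 0.05 there were 3 genes with all libraries (3.73% of all genes), but 10 with sample weights (7.39%), 5 with DESeq2 (2.58%, genes under the filter included), 6 with the position score (4.79%) and 11 without the 4 libraries at the ends of the score (7.84%). Leaving out 1 library at a time gave 2 to 11; the count was 11 when PBS replicate 6 was the one left out (5.46% of all genes), 10 for P. gingivalis replicate 6 (8.34%) and 6 for P. gingivalis replicate 3 (4.75%). With the replicate block 3 genes were at that threshold (3.07% of all genes), the median difference was 0.27 and 34 differences were positive. Same-numbered samples did not deviate together (correlations from -0.54 to 0.08), and none correlated best with its own number. These correlations showed no pairing by number, but they cannot exclude one, since the differences in gut position enter them too. Over all genes limma called 0, DESeq2 31, limma with weights 20 and limma without P. gingivalis replicate 6 53.

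The sign turned for Cmpk2 with sample weights (0.0228) and for Mx1 with the position score (-0.00868). Without the libraries nearly lacking Fabp6 it turned for Usp18 (-0.0334), Ifit3 (-0.11) and Slfn5 (-0.0395). Without P. gingivalis replicate 6 as well it turned for Ifit2 (-0.028), Ifit3 (-0.18), Ifit3b (-0.22), Cmpk2 (0.16), Ifi47 (-0.0302), Phf11d (-0.13) and Slfn5 (-0.125). The cause was not tested. With 1 library left out at a time, differences ran from -0.0478 to 0.441 for Usp18, -0.0291 to 0.318 for Ifit3, -0.0173 to 0.34 for Oasl1, -0.00102 to 0.325 for Irf7, -0.00245 to 0.157 for Ifih1, -0.10 to 0.17 for Mx1, -0.22 to 0.10 for Cmpk2 and -0.137 to 0.0663 for Bst2. A filter of a mean of 50 left 28 of the 37 genes in the fit. Depth limits the weakest genes most: Oas2 had 8 reads in its lowest library.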
